A study of Caenorhabditis elegans with 46 samples.

Results

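The germline and small RNA pathway genes assigned to sites of the DRM complex were examined, site by site, in late embryos of *C. elegans*. The genes were taken by name from the published list of genes assigned to DRM sites. A gene belonged to the set when its name started with 1 of 31 class names, such as *glh* for germline helicase, *mut* for mutator, *rde* for RNAi defective, *rrf* for RNA-dependent RNA polymerase family, or *larp* for La-related protein. Of the 1761 genes in the list, 15 met this rule, from 10 of the 31 name classes, and each had a single DRM site. The 15 sites are among 1418 listed DRM sites. Of the 15, 10 are in bidirectional promoters (66.7%, against 29.8% of all listed sites), where a peak cannot be assigned to the named gene alone. Binding at a site does not by itself show that DRM represses the gene. The paper calls a gene a DRM target when DRM is bound in its promoter, and the list also holds genes assigned to other sites. The sites of *glh-4* and *ekl-5* are intergenic, so these genes are not DRM targets in that sense. A name does not make a gene a germline gene. The set also holds *ego-2*, *ekl-4*, and *ekl-5*, which were named from genetic enhancer screens.

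DRM is the worm form of the DREAM complex. It joins a pair of E2F-DP proteins (EFL-1 and DPL-1) and a MuvB subcomplex (LIN-54, LIN-52, LIN-37, and LIN-9 were profiled) through the pocket protein LIN-35, the worm relative of the retinoblastoma protein, and it is known for keeping cell cycle and germline genes low in somatic cells. Small RNA pathways cut double-stranded RNA into short guides with Dicer, and in worms they amplify the signal with RNA-dependent RNA polymerases and the mutator proteins. Germ granule proteins such as the GLH helicases and CGH-1 hold and regulate maternal RNAs. Late embryos consist mostly of somatic cells, and peaks from whole embryos cannot be assigned to germ cells or somatic cells.

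ChIP-seq, which sequences the DNA fragments that an antibody against a chromatin protein pulls down, was available as 13 peak lists. The mutant embryos carried *lin-35(n745)*, a protein null allele, and are called *lin-35* null here. They gave 6 lists of 3 libraries each and came from L1 larvae grown for 96 hours in liquid culture. The wild-type (WT) embryos were of the strain N2, from larvae grown for 72 hours, with 7 lists. These were made from 3 libraries each for both E2F-DP subunits and for LIN-54, LIN-52, and LIN-9, from 2 for LIN-35, and for LIN-37 from 1 library of this series together with libraries of an earlier one. Embryos of both genotypes were aged for up to 3.5 hours. All *lin-35* null libraries were made with a newer library kit, whereas most WT lists mix that kit with an older gel-based protocol and the LIN-35 list has the older protocol only, so genotype, growth time, and library protocol cannot be told apart. Each list pools its replicates into a single signal value per peak, as the SPP peak caller gave it. No replicate error, read depth, or test can be had from such values, and the sites are not replicates. Signal values of different lists have no common scale, and therefore peaks were ranked list by list and given as percentiles, with 100 for the top of a list. At a site, the highest peak of each list was used. All peaks of a list have 1 width, 550 to 630 bp in *lin-35* null and 290 to 584 bp in WT. The listing of a site required WT peaks of E2F-DP, LIN-35, and MuvB, so their presence in WT is no finding.

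In *lin-35* null embryos, the 15 sites divided into 3 groups. At 6 sites, those of *ego-2*, *larp-5*, *cgh-1*, *ekl-4*, *mut-15*, and *mex-1*, peaks of all 6 remaining subunits were still called (40.0% of the 15, against 40.6% of all listed sites). At 4 sites, those of *rrf-3*, *mut-7*, *larp-1*, and *rrf-2*, peaks of 2 to 5 subunits were called (26.7%, against 32.7% of all listed sites). At 5 sites, those of *dcr-1*, *rde-4*, *mut-2*, *glh-4*, and *ekl-5*, no *lin-35* null peak was called (33.3%, against 26.7% of all listed sites). A site was counted as retained when both E2F-DP subunits and at least 3 of the 4 MuvB subunits kept a peak, and the same 6 sites met this definition (40.0%, against 43.4% of all listed sites). These shares lie near those of all listed sites, so nothing particular to the set was read from them, and what follows concerns the differences among its members.

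By subunit, a *lin-35* null peak was found at 9 of the 15 sites for DPL-1 (56.6% of all listed sites), at 7 for EFL-1 (46.9%), at 9 for LIN-54 (62.6%), at 9 for LIN-52 (65.7%), at 8 for LIN-37 (52%), and at 9 for LIN-9 (70.0%). In all, 51 of the 90 possible pairs of site and subunit kept a peak (56.7%, against 58.9% over all listed sites). A called peak shows presence in the list only, not that occupancy was as high as in WT.

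**Figure D1:**
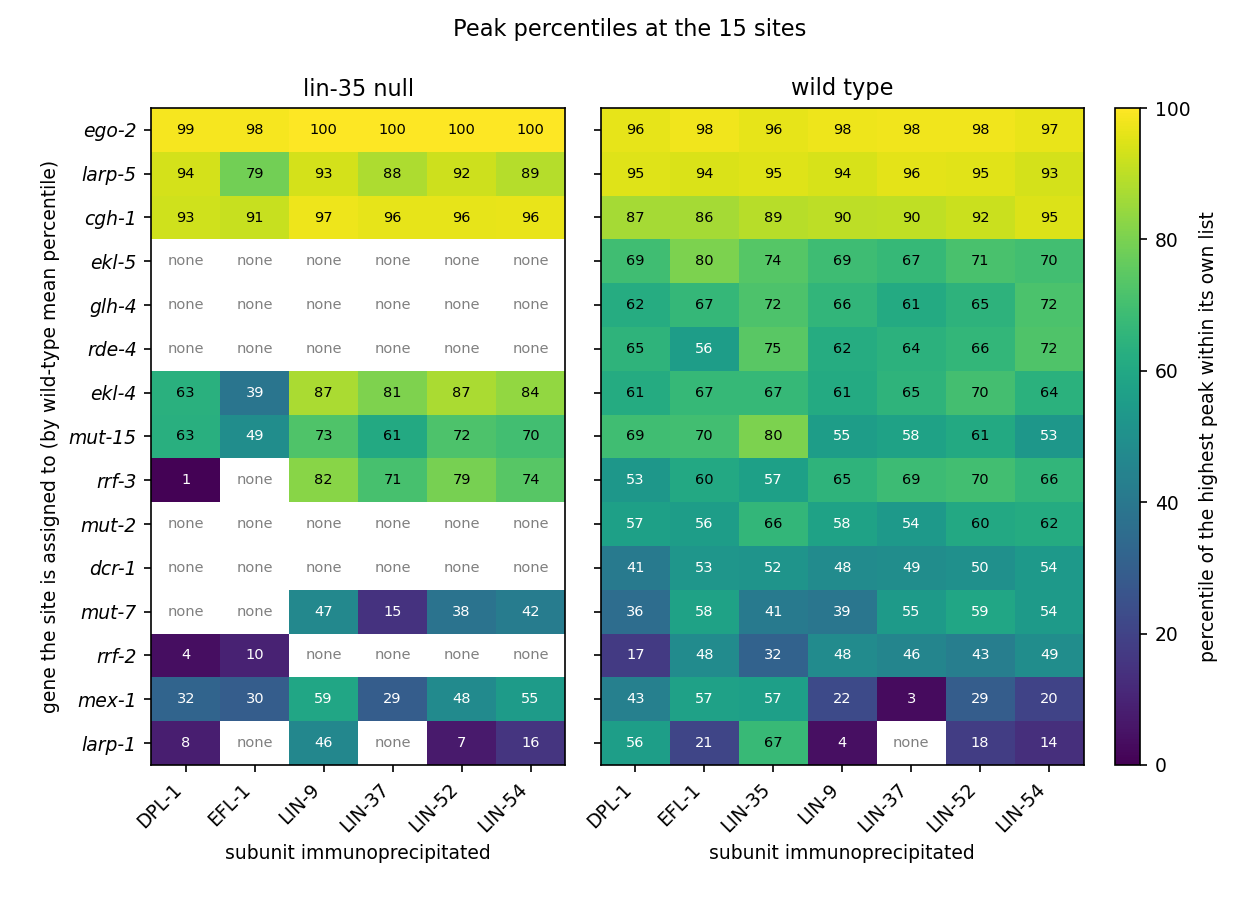
Percentile of the highest peak at each of the 15 sites (rows, ordered by mean WT percentile) in the 6 *lin-35* null lists (left) and the 7 WT lists (right), with 100 for the highest peak of a list and "none" where no peak overlapped the site. The rows of *dcr-1*, *rde-4*, *mut-2*, *glh-4*, and *ekl-5* are empty in *lin-35* null, and those of *ego-2*, *larp-5*, and *cgh-1* are high in both genotypes.

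The genes grouped under small RNA production and amplification were described first. Of the first 4, *dcr-1* encodes Dicer, the nuclease that cuts double-stranded RNA, and *rde-4* encodes its double-stranded RNA-binding partner. The others, *rrf-3* and *rrf-2*, are of the RNA-dependent RNA polymerase family, and *rrf-2* was placed here by that name alone. The polymerase RRF-3 works in endogenous small RNA production. None of the 4 sites was retained in *lin-35* null, against 43.4% of all listed sites, and 2 had no peak at all, against 26.7%. With 4 sites, no difference from these shares was read.

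The *dcr-1* (WBGene00000939) site lies in a bidirectional promoter shared with *apc-2*, a gene of the anaphase-promoting complex, on chromosome III from 8079989 to 8080572. Positions are those covered by the WT peaks, in the ce10 build. All 6 *lin-35* null lists lacked a peak there, and the nearest *lin-35* null summit was 12.9 kb away. In WT, its percentiles were 41.3 for DPL-1, 52.6 for EFL-1, 51.6 for LIN-35, 53.8 for LIN-54, 50.0 for LIN-52, 48.9 for LIN-37, and 48.2 for LIN-9. All 7 WT peaks thus ranked near the middle of their lists. The *rde-4* (WBGene00004326) site, in a bidirectional promoter shared with *T20G5.14* on chromosome III from 10218347 to 10218930, had no *lin-35* null peak either, and the nearest summit was 29.9 kb away. In WT, its lowest percentile was 55.7, for EFL-1, and its highest was 74.5, for LIN-35. The *rde-4* site is marked in the published list as a HOT region, a stretch where many unrelated transcription factors are found in embryos. Of the 6 sites marked HOT, 4 were retained (66.7%, against 60.0% of all listed HOT sites), and *rde-4* was the only one without a *lin-35* null peak. Of the 9 sites not so marked, those of *ego-2* and *larp-5* were retained (22.2%, against 36.4% of all listed sites without the mark). Retention was thus more frequent with the mark among all listed sites too, and the counts show nothing particular to these genes.

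The *rrf-3* (WBGene00004510) site is in a bidirectional promoter shared with *emb-27*, another gene of the anaphase-promoting complex, on chromosome II from 8162113 to 8162696. In *lin-35* null, its MuvB percentiles were 74.2 for LIN-54, 79.3 for LIN-52, 71.1 for LIN-37, and 82.4 for LIN-9. In WT, they were 66.0 for LIN-54, 69.6 for LIN-52, 68.6 for LIN-37, and 65.1 for LIN-9. All 4 MuvB subunits therefore kept a peak, each at a higher percentile than in WT. Neither E2F-DP subunit ranked higher than in WT. The DPL-1 percentile was 0.704 in *lin-35* null, rank 989 of 995 peaks, against 53.1 in WT, and EFL-1 had no *lin-35* null peak, against a percentile of 60.4 in WT. The *rrf-3* site missed the definition of a retained site by its EFL-1 peak alone, and the nearest *lin-35* null EFL-1 summit was 4.26 kb away. A second, low LIN-9 peak overlapped the site in *lin-35* null, with a percentile of 9.80.

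The *rrf-2* site is in the promoter of *rrf-2* (WBGene00004509) alone, on chromosome I from 12105818 to 12106693, and it kept E2F-DP without MuvB. In *lin-35* null, DPL-1 had a percentile of 3.52 and EFL-1 of 9.71, and none of the MuvB subunits had a peak. In WT, DPL-1 had 17.0, EFL-1 48.2, and LIN-35 31.6, and the MuvB percentiles ranged from 42.7 for LIN-52 to 49.0 for LIN-54. Such a site, with DPL-1 and EFL-1 but no MuvB peak, made up 0.987% of all listed sites. Both *rrf-2* peaks were among the lowest of their lists, at ranks 961 of 995 and 708 of 783, and neither was left when the lowest 25% of each *lin-35* null list was removed.

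The mutator genes *mut-2*, *mut-7*, and *mut-15* are needed to amplify small RNAs and to silence transposons. MUT-2 is a nucleotidyltransferase, and MUT-7 has the features of an exonuclease. Their sites, all in bidirectional promoters, each fell into a different group. The *mut-15* (WBGene00011323) site, shared with the fibrillarin gene *fib-1* on chromosome V from 15001984 to 15002567, was retained. Its *lin-35* null percentiles were 63.2 for DPL-1, 49.2 for EFL-1, 69.7 for LIN-54, 72.1 for LIN-52, 60.6 for LIN-37, and 72.5 for LIN-9. Its WT percentiles were 69.5 for DPL-1, 69.7 for EFL-1, 80.1 for LIN-35, 53.1 for LIN-54, 60.9 for LIN-52, 57.6 for LIN-37, and 55.5 for LIN-9. The E2F-DP percentiles were thus lower in *lin-35* null than in WT, and the MuvB percentiles were higher. Over all listed sites with both peaks, the median differences (*lin-35* null minus WT) were -9.99 for DPL-1 and -20.1 for EFL-1. For the MuvB subunits, they ranged from -14.0 for LIN-37 to -1.49 for LIN-9.

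The *mut-7* (WBGene00003504) site, shared with *ZK1098.4* on chromosome III from 9542615 to 9543198, kept MuvB without E2F-DP. In *lin-35* null, the percentiles were 41.9 for LIN-54, 38.3 for LIN-52, 14.6 for LIN-37, and 46.6 for LIN-9, and neither DPL-1 nor EFL-1 had a peak. In WT, they were 54.5 for LIN-54, 59.2 for LIN-52, 54.6 for LIN-37, and 39.2 for LIN-9, with 35.9 for DPL-1, 57.7 for EFL-1, and 41.1 for LIN-35. Such a site, with at least 3 MuvB subunits and no E2F-DP subunit, was *mut-7* alone among the 15, and 9.80% of all listed sites were of this kind. The *mut-2* (WBGene00003499) site, shared with *K04F10.3* on chromosome I from 6358280 to 6358863, had no *lin-35* null peak, and the nearest summit was 40.6 kb away. Its WT percentiles were close together, from 54.1 for LIN-37 to 66.1 for LIN-35.

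The 7 genes grouped under small RNA production and amplification were counted together. They had 1 retained site, 3 sites with part of the subunits, and 3 without a *lin-35* null peak. The other 8 genes had 5 retained sites, 1 with part of the subunits, and 2 without a peak. Of all 1418 listed sites, 616 were retained, 424 had part of the subunits, and 378 had no peak. This division into 7 and 8 genes was made after the values were seen, and whether the groups differ was not tested. The median of the mean WT percentiles was 58.9 in the first of these groups and 68.9 in the second, and 2 and 4 of their sites, in this order, are marked HOT. The part of WT peak height and of HOT marks in these counts was not tested.

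**Figure D2:**
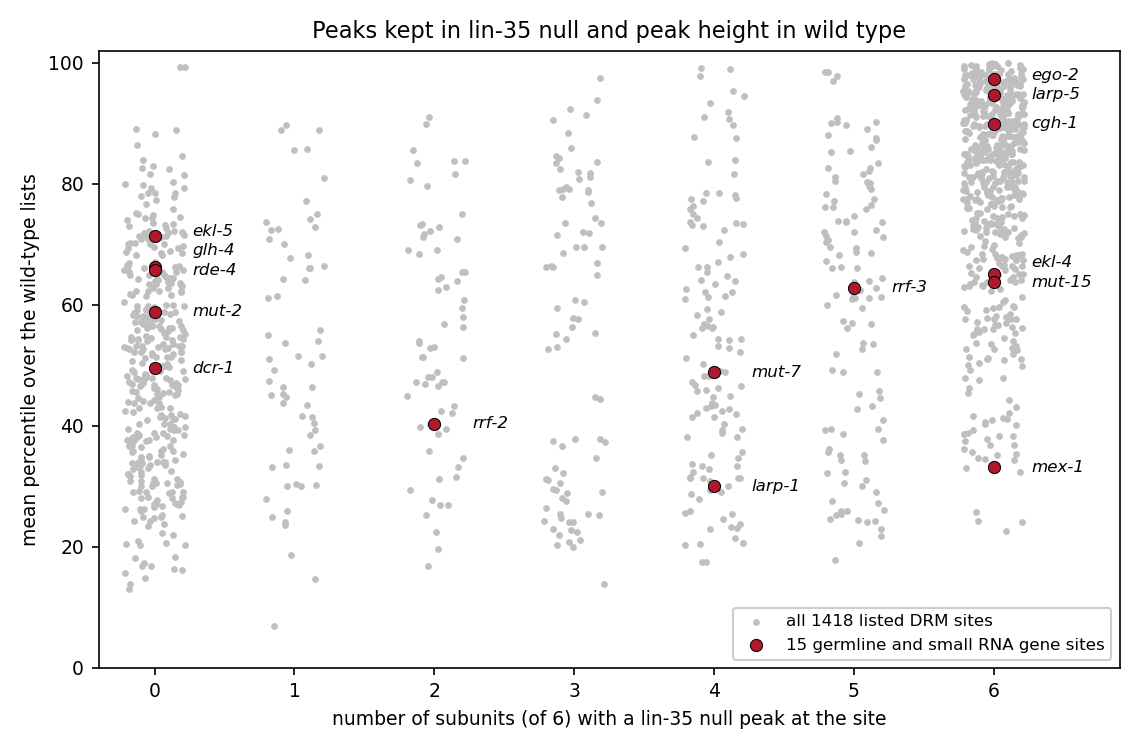
Number of subunits with a *lin-35* null peak at a site (horizontal axis, of 6) against the mean percentile of the site over the WT lists (vertical axis). Red points are the 15 sites, with gene names, and grey points all 1418 listed DRM sites, spread sideways for visibility. *mex-1* kept all 6 subunits from a mean WT percentile of 33.2, below all 5 of the sites that kept none.

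The germ granule and RNA-binding protein genes followed. CGH-1 is a DEAD-box RNA helicase that guards maternal RNAs in oocytes and early embryos. The *cgh-1* (WBGene00000479) promoter site, on chromosome III from 7498286 to 7498869, is marked HOT and was retained. Its *lin-35* null percentiles were 92.8 for DPL-1, 91.4 for EFL-1, 96.5 for LIN-54, 96.4 for LIN-52, 96.3 for LIN-37, and 97.3 for LIN-9. In WT, they were 86.6 for DPL-1, 86.4 for EFL-1, 89.3 for LIN-35, 94.7 for LIN-54, 92.0 for LIN-52, 90.5 for LIN-37, and 89.9 for LIN-9. All 6 subunits ranked higher within the *lin-35* null lists than within the WT lists, which are longer.

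MEX-1 is a zinc finger protein that helps to confine germline fate to the germline blastomeres of the early embryo. The *mex-1* (WBGene00003228) site, in a bidirectional promoter shared with *W03C9.5* on chromosome II from 11967397 to 11967980, is also marked HOT and retained all 6 subunits. In *lin-35* null, its percentiles were 32.2 for DPL-1, 29.6 for EFL-1, 54.8 for LIN-54, 47.7 for LIN-52, 29.3 for LIN-37, and 59.3 for LIN-9. In WT, they were 43.4 for DPL-1, 57.2 for EFL-1, 56.6 for LIN-35, 20.2 for LIN-54, 29.5 for LIN-52, 2.84 for LIN-37, and 22.4 for LIN-9. MuvB ranked low in WT and higher in *lin-35* null, where LIN-37 stayed in the lower part of its list. The E2F-DP percentiles were lower in *lin-35* null than in WT. The median differences of these subunits over all listed sites with both peaks were also negative. By its mean WT percentile of 33.2, *mex-1* was 1241st of the 1418 listed sites, the lowest of the 6 retained sites. Retained sites elsewhere in the list reached down to 21.8, and their median was 82.7.

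The third gene of this group, *glh-4* (WBGene00001601), encodes a Vasa-like helicase of germ granules. Its site is intergenic, listed also for *lin-59*, on chromosome I from 3723339 to 3723922. It had no *lin-35* null peak, and the nearest summit was 17.7 kb away. The WT percentiles were 61.8 for DPL-1, 66.7 for EFL-1, 71.9 for LIN-35, 71.8 for LIN-54, 64.7 for LIN-52, 61.0 for LIN-37, and 65.8 for LIN-9. All WT peaks of *glh-4* thus ranked above the middle of their lists and above the WT MuvB peaks of *mex-1*, and none was called in *lin-35* null. Of the 307 listed sites outside promoters, 169 had no *lin-35* null peak, and 72 (23.5%) were retained. The loss at *glh-4*, like that at the intergenic site of *ekl-5*, thus shows nothing particular to these genes.

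La-related proteins bind RNA and regulate its translation and stability. The sites of the 2 genes of this class differed. The *larp-5* (WBGene00004147) site, in a bidirectional promoter shared with *T12F5.1* on chromosome I from 3741028 to 3741611, was retained with *lin-35* null percentiles of 93.6 for DPL-1, 78.5 for EFL-1, 88.7 for LIN-54, 92.4 for LIN-52, 87.7 for LIN-37, and 93.4 for LIN-9. Its WT percentiles ranged from 93.5 for LIN-54 to 95.8 for LIN-37, with 95.0 for LIN-35. Each of the 6 subunits had a lower percentile in *lin-35* null, EFL-1 by the most. The *lin-35* null lists are shorter, and places counted from the top did not all fall. DPL-1 was 65th of 995 in *lin-35* null and 89th of 1771 in WT, whereas EFL-1 was 169th of 783 and 122nd of 2119. The *larp-5* and *glh-4* sites lie near each other on chromosome I, and the *lin-35* null peaks of the first are the nearest to the second, at that distance of 17.7 kb.

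The *larp-1* (WBGene00020097) site, in a bidirectional promoter shared with *wip-1* on chromosome III from 5017995 to 5018534, is marked HOT and had the lowest mean WT percentile of the 15, 30.0. In *lin-35* null, DPL-1 had a percentile of 8.24, LIN-9 of 46.4, LIN-52 of 7.42, and LIN-54 of 15.6, and EFL-1 and LIN-37 had no peak. In WT, DPL-1 had 55.9, EFL-1 21.0, LIN-35 67.5, LIN-9 3.92, LIN-52 18.1, and LIN-54 13.5. LIN-37 had no WT peak there either, so *larp-1* was the only one of the 15 sites without WT peaks of all 7 subunits. LIN-35 and DPL-1 therefore ranked well above MuvB in WT. The LIN-35 percentile exceeded the mean MuvB percentile by 55.6, which was second among the 1418 listed sites, whose median was 0.42. The 2 measures come from different antibodies and, for LIN-35, from libraries of the older protocol only, whose part in such differences was not tested. At *mex-1*, the excess was 37.8 and placed 18th, and at *mut-15* it was 23.3 and placed 81st. At *rrf-2*, LIN-35 was below MuvB by a difference of -14.8, at *mut-7* by -10.8, and at *rrf-3* by -10.3.

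The genes named from enhancer screens were *ego-2*, whose Bro1-domain product promotes Notch signaling in the germline, *ekl-4*, which encodes the relative of the chromatin protein DMAP1, and *ekl-5*. The *ego-2* (WBGene00001215) promoter site, on chromosome I from 11416474 to 11417057, was the highest of the 15 in both genotypes. In *lin-35* null, its lowest percentile was 98.5, for EFL-1, and its highest was 99.8, for LIN-9. It ranked 4th in the LIN-9, LIN-37, and LIN-54 lists, 6th in the LIN-52 list, and 13th in the DPL-1 and EFL-1 lists. In WT, its percentiles ranged from 96.3 for DPL-1 to 98.0 for LIN-52, and its ranks from 45 to 84. The site is not marked HOT.

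The *ekl-4* (WBGene00013676) site, in a bidirectional promoter shared with the ribosomal protein gene *rps-20* on chromosome I from 14469029 to 14469612, is marked HOT and was retained. In *lin-35* null, its percentiles were 63.4 for DPL-1, 38.7 for EFL-1, 83.7 for LIN-54, 87.3 for LIN-52, 80.6 for LIN-37, and 87.4 for LIN-9. In WT, they were 61.4 for DPL-1, 67.2 for EFL-1, 67.1 for LIN-35, 63.9 for LIN-54, 70.1 for LIN-52, 65.0 for LIN-37, and 61.2 for LIN-9. The subunits were thus close in percentile in WT and apart in *lin-35* null, with MuvB above EFL-1. The EFL-1 percentile was also lower over all listed sites with both peaks, with a median difference of -20.1. The *ekl-5* (WBGene00012512) site is intergenic on chromosome X from 13917983 to 13918566, the only one of the 15 on that chromosome. It had no *lin-35* null peak, and the nearest summit was 77.6 kb away. Its mean WT percentile of 71.5 was the fourth highest of the set. Its WT percentiles ranged from 67.0 for LIN-37 to 80.5 for EFL-1.

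By mean WT percentile, the outcomes were mixed below the top of the set. The 3 sites with the highest mean WT percentiles, *ego-2* (97.3), *larp-5* (94.7), and *cgh-1* (89.9), were retained. Of the 355 listed sites with a mean WT percentile of 83.38 or more, 299 were retained (84.2%). The outcome of these 3 sites thus shows nothing particular to their genes. The 3 lowest, *rrf-2* (40.4), *mex-1* (33.2), and *larp-1* (30.0), kept 2, 6, and 4 subunits, in this order, and the 5 sites without a *lin-35* null peak all lay above them. Between mean WT percentiles of 58.9 and 66.3, the sites of *glh-4*, *rde-4*, *ekl-4*, *mut-15*, *rrf-3*, and *mut-2* lay close together, and they included sites with all, 5, and no subunits in *lin-35* null. The ranges of their WT percentiles over the 7 lists overlapped, and the order of these 6 has no meaning beyond that. The 5 sites without a *lin-35* null peak had a median mean WT percentile of 65.7, from 49.5 for *dcr-1* to 71.5 for *ekl-5*. Over all listed sites, the 378 without a peak had a median of 50.0. The median of all 15 was 63.8, against 65.8 for all listed sites.

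Among the peaks that were kept, the percentiles of *lin-35* null and WT were compared subunit by subunit. Of the 9 LIN-9 peaks kept, 8 had a higher percentile in *lin-35* null than in WT, against 46.1% of all listed sites with both peaks, and the median difference was 17.0, against -1.49. For LIN-37, 6 of 8 were higher, against 25.8% of all, with a median of 2.76 against -14.0. For LIN-52, 6 of 9 were higher, against 32.8% of all, with a median of 4.41 against -7.83. For LIN-54, 7 of 9 were higher, against 33.8% of all, with a median of 2.99 against -8.60. For the E2F-DP subunits, the medians were nearer to those of all listed sites, while the shares with a higher percentile exceeded those of all listed sites. For EFL-1, 2 of 7 were higher, against 15.6% of all, with a median of -20.6 against -20.1, and for DPL-1, 3 of 9 were higher, against 29.3% of all, with a median of -6.24 against -9.99. These are descriptions of 7 to 9 peaks each, and the differences from all listed sites were not tested. Only peaks called in both genotypes entered, and a peak of low WT percentile has more room to rise than a high one. The part of WT rank in these differences was not tested. A percentile difference between lists of different length is a change of relative position within a list, not of occupancy. In a shorter list, a percentile can fall although the place counted from the top is higher. EFL-1 at *mex-1* was 552nd in *lin-35* null and 907th in WT, with percentiles of 29.6 and 57.2. The *lin-35* null lists hold 995 DPL-1, 783 EFL-1, 1674 LIN-9, 927 LIN-37, 1388 LIN-52, and 1225 LIN-54 peaks, and the WT lists of the same subunits hold 1771, 2119, 2067, 2111, 2284, and 2290.

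**Figure D3:**
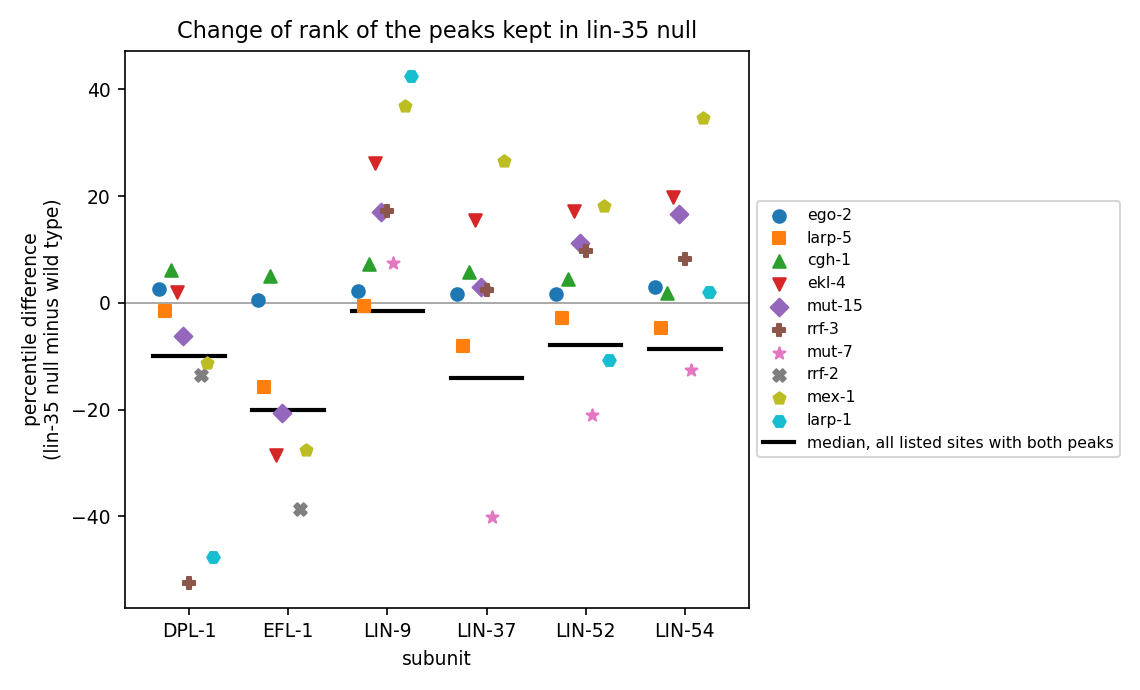
Percentile in *lin-35* null minus percentile in WT (vertical axis) for each peak kept at the 15 sites, by subunit, with a marker for each gene. Black bars are the medians over all listed DRM sites with a peak in both lists, lowest for EFL-1 (-20.1) and highest for LIN-9 (-1.49). Of the LIN-9 differences, 8 of 9 lie above 0, against 46.1% over all listed sites, and of the EFL-1 differences 2 of 7, against 15.6%.

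The summits gave a measure that the choice of genes did not use. In WT, the summits of the subunits at a site spanned a median of 22 bp, the same as the median of all listed sites, from 1 bp at *ego-2* to 254 bp at *rrf-2*. At 14 of the 15 sites, the span was at most 43 bp. The exception, *rrf-2*, held 2 WT peaks each of EFL-1, LIN-9, and LIN-37. The higher EFL-1 and LIN-9 peaks had summits at -190 and -209 bp from the median WT summit of the site, and the lower peaks of the same subunits, at 11 and 0 bp, had percentiles of 42.1 and 48.0. In *lin-35* null, the kept DPL-1 and EFL-1 summits of *rrf-2* were at -304 and -148 bp, on the side of the second cluster. Elsewhere, *lin-35* null and WT summits of the same subunit were close. Over the 51 kept peaks, the median distance was 7 bp, and 49 (96.1%) were within 50 bp, all but DPL-1 at *rrf-2* and LIN-9 at *larp-1*. Over all listed sites, the median was 10 bp, and 93.9% were within 50 bp.

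**Figure D4:**
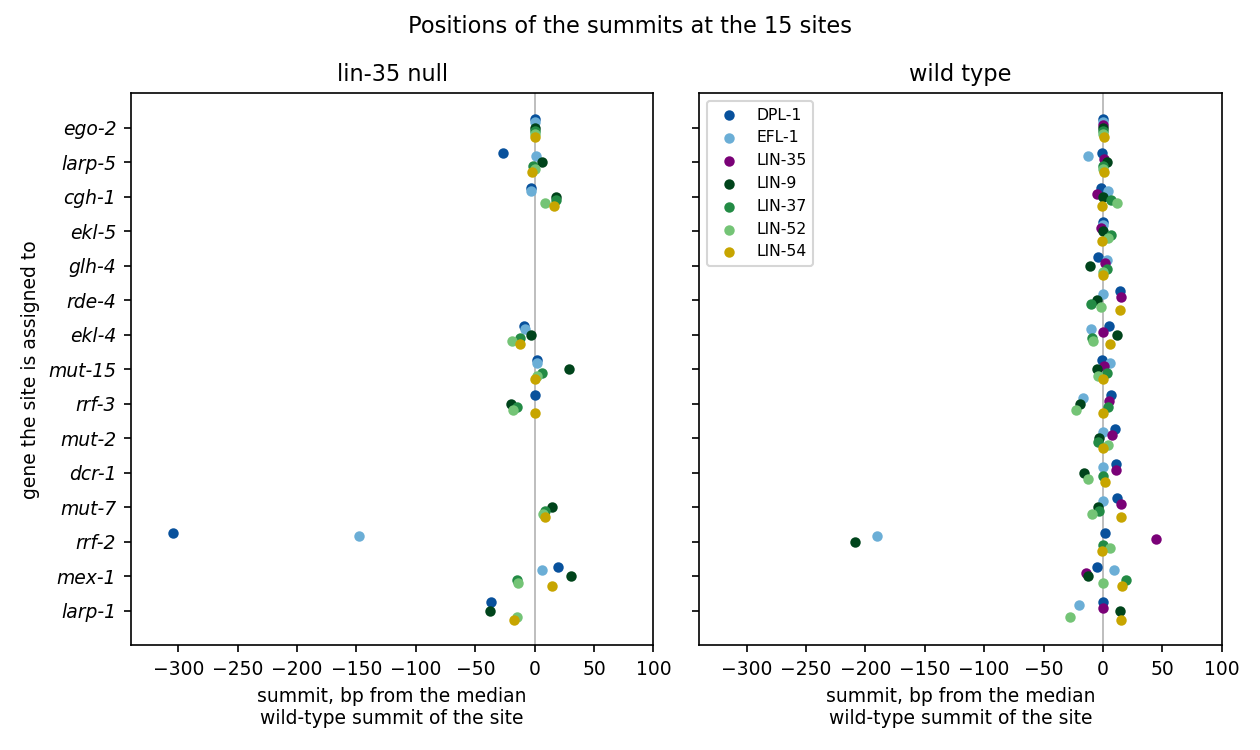
Summit of the highest peak of each subunit, in bp from the median WT summit of the site, for the 15 sites in *lin-35* null (left) and WT (right), with subunits colored. Summits lie within 50 bp of 0 at all sites except *rrf-2*, whose EFL-1 and LIN-9 summits in WT lie at -190 and -209 bp and whose DPL-1 summit in *lin-35* null lies at -304 bp.

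Other RNA pathway genes in the published list were taken by a second set of class names, such as *eri* and *pash*. They comprised 13 genes with 15 sites, of which 4 sites were retained (26.7%, against 43.4% of all listed sites) and 6 had no *lin-35* null peak (against 26.7%). The other 5 had part of the subunits. The median of their mean WT percentiles was 46.9. The retained sites were those of *pash-1*, the partner of the microRNA-processing nuclease Drosha, *vig-1*, a component of the RNA-induced silencing complex, *spn-4*, a translation regulator of the early embryo, and *patr-1*, a decapping activator. Their mean *lin-35* null percentiles were 88.1, 80.7, 36.5, and 22.7, in this order, and their mean WT percentiles were 92.7, 96.2, 86.8, and 89.7. Those without a *lin-35* null peak were the 3 sites of *eri-3* and the sites of *eri-5*, *daz-1*, and *cid-1*. The products of *dcr-1*, *rde-4*, *rrf-3*, *eri-3*, and *eri-5* are known to work together in the ERI complex of endogenous small RNA production. This grouping was made after the values were seen, and 3 of its 7 sites belong to *eri-3* alone, so its counts support nothing. Of the 7 sites of these 5 genes, 6 had no *lin-35* null peak (against 26.7% of all listed sites) and none was retained (against 43.4%), with mean WT percentiles from 40.4 for a promoter site of *eri-3* to 65.7 for *rde-4*.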

How the data were processed

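ChIP-seq of 7 DRM subunits and matching inputs, 46 libraries of late embryos, was the source. Reads were mapped to ce10 with bowtie 1.1.2, allowing up to 2 reported alignments, peaks were called with SPP against input, and peaks passing an Irreproducible Discovery Rate of 1% over replicates were kept. The authors deposited for each peak an SPP signal value, on a scale not given in the sources used here. A nearly constant column on the −log10 scale was not used. Read depth is not in the lists, so no interval is given.

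The genes, sites (500 bp each), locations, and HOT marks came from the published lists. All 15 identifiers matched their symbols. Peaks were assigned to a site by an overlap of at least 1 bp, with percentiles from average ranks. The text names every gene that met the rule. The members and lists were chosen with earlier results of these data known. The authors' differential binding and expression columns were not used. Computations used Python 3.11.15, numpy 2.4.6, scipy 1.17.1, and matplotlib 3.10.9. The overlap and rank steps were tested on simulated lists. LIN-35 ChIP in *lin-35* null, the inputs, and coverage tracks were not analysed here, and no sequence of the sites was used. The alternatives concerned overlap, peak width, list threshold and length, site window, and the definition of retained.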

Additional observations from a re-analysis of the deposited data

How the results depend on the processing

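The 6 retained sites (40.0% of the 15) were unchanged under the 5 other settings tried for peaks and sites (overlap, width of peaks, threshold, list length, and window) and when all 6 subunits were required. The share of all listed sites was 43.4% as reported. It fell to 35.5% with the lowest 25% left out and to 38.0% with the lists shortened. With a single subunit counted as enough, 10 of the 15 sites were retained, against 73.3% of all listed sites. The number of sites without a *lin-35* null peak was 5 or 6 under these settings, with *rrf-2* added when the lowest 25% of each *lin-35* null list was left out and *larp-1* when the lists were shortened to the shortest. Over all listed sites, 35.8% and 41.2% had no peak under these 2 settings, in this order, against 26.7% as reported. The partly kept sites depended on the lists most. With the lowest 25% left out, *rrf-2* kept 0 subunits, *larp-1* 1, *mut-7* 3, and *rrf-3* 4. With the lists shortened, *larp-1* kept 0, *rrf-2* and *mut-7* 1 each, and *rrf-3* 4. With an overlap of 50% of the shorter, *rrf-2* kept 1. Fewer peaks in the lists account for the first 2 of these settings by construction. The median of the mean WT percentiles was 65.0 with the median over lists and 63.8 with the 6 shared lists, against 66.1 and 65.2 for all listed sites. No paired analysis was possible because each list pools its replicates. For the same reason, no replicate could be left out, including the *lin-35* null replicate that the paper describes as elevated.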
